A study of Homo sapiens with 27 samples.

Results

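In 3 human prostate cancer cell lines, 3952 protein-coding genes had at least as many poly(A)-anchored reads in their introns as in their 3′ UTR over the control libraries. These genes were chosen by the reads of the 9 control libraries: the intronic and the 3′ UTR reads of each gene were summed, genes with 200 or more reads in total were kept, and the intronic share, which is the intronic reads as a percent of the intronic plus 3′ UTR reads, had to be 50% or more. Of 19523 genes listed in both tables, 12081 had 200 reads, and the 3952 genes are 32.7% of those. The control shares are therefore a description and carry no test. The control libraries also enter each comparison with the knockdown, so the counts of changes over all members stand beside the same count over all genes tested, and those of intronic reads and of the ratio also beside the count for genes chosen without the controls of the line in question.

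Most messenger RNAs end where the cleavage and polyadenylation machinery recognises a hexamer, usually AATAAA or ATTAAA, shortly upstream of the cleavage site in the last exon. Many introns hold such signals too. When one of them is used before the intron is spliced out, the transcript is cut short and can lack the coding end, or the whole coding sequence, and factors that pause transcription, bind the 5′ splice site or make up the cleavage complex are known to shift the balance between both outcomes. A read counted in an intron need not come from such an end, because non-coding genes, processed pseudogenes and runs of adenines inside introns can give poly(A)-primed reads as well.

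The series holds 27 libraries of PAC-seq, a method that primes reverse transcription on the poly(A) tail and reads the 3′ end of the transcript, in 9 groups of 3. LNCaP is a line from a lymph node metastasis that depends on androgen, LNCaP95 was derived from it in medium depleted of androgen, and 22Rv1 came from a xenograft that relapsed after castration. LNCaP and 22Rv1 cells were kept in RPMI 1640 with serum, and LNCaP95 cells in phenol red free RPMI 1640 with serum. Each line carried a non-silencing control shRNA (CTRL sh) or one of a pair of shRNAs to CPSF1 (CPSF1 sh1, CPSF1 sh2), the largest protein of the complex that recognises the poly(A) signal, delivered by lentivirus and selected with puromycin, which the controls received too, and RNA was taken after 72 h in culture. The 3 replicates of a group (BR1 to BR3) are given as biological replicates, and whether they were transduced separately is not given in the sources used here, so the tests measure the spread between these cultures. Bulk libraries cannot tell fewer transcripts per cell from fewer cells that make them.

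The libraries held 936970 to 3580071 intronic and 1725670 to 6549383 3′ UTR reads. On the log2 scale the 3′ UTR reads of CPSF1 fell following knockdown by 1.19 in LNCaP cells (SE 0.166), by 1.06 in LNCaP95 cells (SE 0.179) and by 0.72 in 22Rv1 cells (SE 0.141), with adjusted p-values of 7.44e-05, 0.000214 and 0.0169. Summed 3′ UTR CPM (reads scaled to the library size) of 10 luminal prostate markers were 3420 to 10488 in each library, those of basal, fibroblast and leukocyte markers were at most 42.4, and neuroendocrine markers reached 54.1 to 67.7 in 22Rv1 against 3.98 to 18.8 in the other lines. The members' median intronic share per library was 72.2% to 87.2%. The 22Rv1 library CTRL sh BR1 stood apart at 87.2%, against 74.5% and 77.2% in the other controls of the line, and the LNCaP95 library CPSF1 sh2 BR1 was at 84.8%. Counts that rest on these libraries are given with and without them.

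The sequences below show why the intronic counts hold more than one kind of end. The first set is the last 30 bases of annotated transcripts that stop inside an intronic region of a gene described later, read 5′ to 3′ from GRCh37 at the ends given by GENCODE 44 mapped to that build, with the poly(A) signal hexamer in capitals.
PCF11, chr11:82869892-82869921, + strand: aaaatttgtgAATAAAacatataaaatatg
RBBP6, chr16:24566230-24566259, + strand: atataaaattacAATAAAatgttaaaactg
CDK13, chr7:40106452-40106481, + strand: tttcagttaaAATAAAatgtttaaattata
FOLH1, chr11:49207146-49207175, - strand: agagactttATTAAAgaatttcctttggta
PPP3CB, chr10:75226716-75226745, - strand: gagagaaAATAAAtgctatttaagaaattc
DCBLD2, chr3:98568232-98568261, - strand: taacaacaaaAATAAAatgctttttttaag
MBD5, chr2:149001908-149001937, + strand: tattatttttactAATAAAgggtgggtaaa
AGBL3, chr7:134697233-134697262, + strand: gtataatacctAATAAAcatttaaatattt
CORIN, chr4:47663505-47663534, - strand: attttaaaAATAAAgaagtcattttctatt
SRRM4, chr12:119439616-119439645, + strand: tgcctctataaAATAAAcaaaaattaacca
STEAP1B, chr7:22611226-22611255, - strand: ttatggtAATAAAaggaagttgaaagttca
In these windows, which are a choice of ends that hold a hexamer, the hexamer ended 11 to 17 bases before the annotated end. Other annotated ends of several of these genes hold none. Elsewhere it lay at other distances, as at 5 bases in another SRRM4 end and 23 in a FIP1L1 end. Of all such ends in members, 19.16% held either hexamer. The match is a description of the letters, since the counts are per gene and do not say at which base a read ended.

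The second set is a 30-base stretch of the mitochondrial 16S ribosomal RNA gene MT-RNR2 and its counterparts in the 3 members with the most intronic reads, with bases that differ from MT-RNR2 in capitals.
MT-RNR2, chrM:1935-1964, + strand: aaaagagcacacccgtctatgtagcaaaat
MTRNR2L12, chr3:96336786-96336815, - strand: aaaagagcacacccgtctatgtagcaaaat
MTRNR2L8, chr11:10530442-10530471, - strand: aaaagagcacacccgtctatgtagcaaaat
MTRNR2L1, chr17:22022689-22022718, + strand: GaaagagcacacccAtctatgtagcaaaat
The MTRNR2L genes are nuclear copies of that gene annotated as coding for humanin-like peptides. The longest stretch that matched MT-RNR2 without a difference was 99 bases in MTRNR2L12, 88 in MTRNR2L8 and 60 in MTRNR2L1.

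The intronic share was spread over the whole range, with a peak at each end. Of the 12081 genes, 2815 were under 5% and 851 were at 95% or more. Among the members the median share was 77.4%, 2154 were at 75% or more, 1192 at 90% or more, 449 at 99% or more, and 182 had no 3′ UTR read in the controls. At the lower edge 754 members lay between 50% and 60%, so membership of many genes rests on a narrow margin. IQCD (183 intronic and 183 3′ UTR reads) and NUAK2 (267 and 267) lay just inside the limit, and PPFIA1 (2378 and 2380) and RCC1 (4076 and 4080) just outside. By reads, ZNF778 (127 and 73) and ZNF516 (139 and 61) had exactly 200, and GUCY2D (113 and 86) and MDH1B (143 and 56) had 199.

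**Figure D1:**
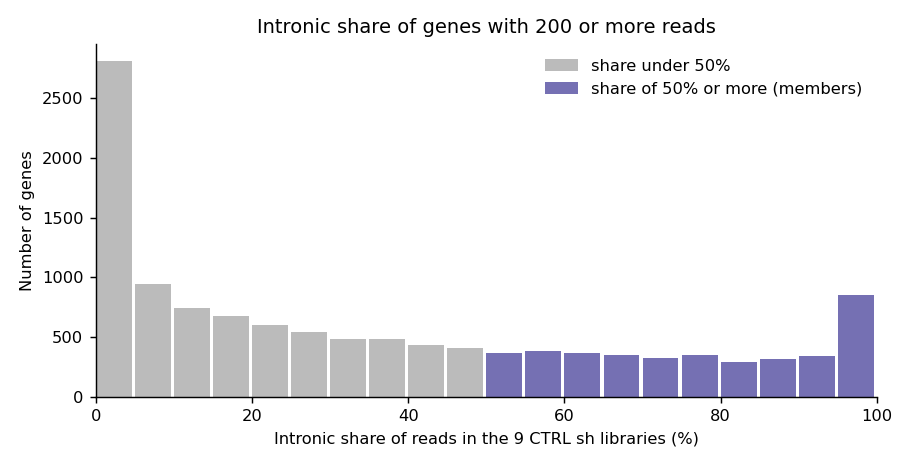
Number of genes (y axis) by intronic share in the 9 CTRL sh libraries (x axis, percent, bins of 5 points) among genes with 200 or more reads; purple bars are the 3952 members and grey bars the other 8129 genes. The bin under 5% holds 2815 genes and the bin at 95% or more holds 851, with no gap at the 50% limit.

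The reads were concentrated in few genes. The members held 13079528 of the 16886309 intronic control reads (77.5%) and 4.84% of the 3′ UTR reads. The 3 genes at the top held 36.0% of the members' intronic reads and the 10 at the top 45.2%. The median member had 818 intronic and 228 3′ UTR reads, against 192 and 1530 in the other 8129 genes, which is what the rule asked for.

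Gene structure also set the members apart, but it is not independent of the rule, since intronic reads add up over the counted intronic bases. Members were long genes, with a median span of 115 kb against 23.8 kb, a median of 15 intronic pieces against 9, and 108072 counted intronic bases against 19462. Reads per kilobase of intron, which use the same control reads as the rule, were alike. Their median was 8.97 in members and 8.47 in the others, and the counted 3′ UTR was 3424 against 2637 bases. These are medians over genes with no test.

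The annotation placed an end inside the intronic region of most members. Members held a median of 108072 counted intronic bases against 19462, which leaves more room for any annotated feature. The shares of genes given below are not adjusted for that length. A transcript of the gene itself ended there in 65.7% of members (2597 genes) and 52.9% of the others, and the difference was widest for transcripts without a defined coding sequence (41.9% against 24.3%) and for protein-coding transcripts (20.7% against 12.2%), and narrower for retained-intron transcripts (40.3% against 36.1%). Of the 8462 such ends in members, 19.16% held AATAAA or ATTAAA on the transcribed strand within their last 30 bases, against 10.21% of 10092 ends in the other genes. At least 12 adenines in the 20 bases downstream, a context for internal priming, followed 7.42% and 5.99% of them. Another gene on the same strand ended in the intronic region of 47.2% of members and 17.5% of the others.

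Sorted by what ends there, the members fell into unequal classes. The 9 MTRNR2L genes made up 0.228% of the members and held 36.3% of their intronic reads. Hosts of a processed pseudogene, a gene copy made by reverse transcription of an mRNA, were 673 members (17.0%, against 2.34% of the other genes) with 28.3% of the reads. That difference is not adjusted for intron length either. A further 1087 members (27.5%) enclosed the end of another gene, 1319 (33.4%) held only ends of their own transcripts, 583 (14.8%) held no annotated end, and 281 (7.11%) had a symbol not matched in the newer annotation. The median share was 99.1% for the MTRNR2L genes and 90% for pseudogene hosts, and 78.2%, 72.9% and 72.7% for the next 3 classes. Genes with own ends only, the class nearest to intronic polyadenylation in the textbook sense, held 13.4% of the members' intronic reads.

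**Figure D2:**
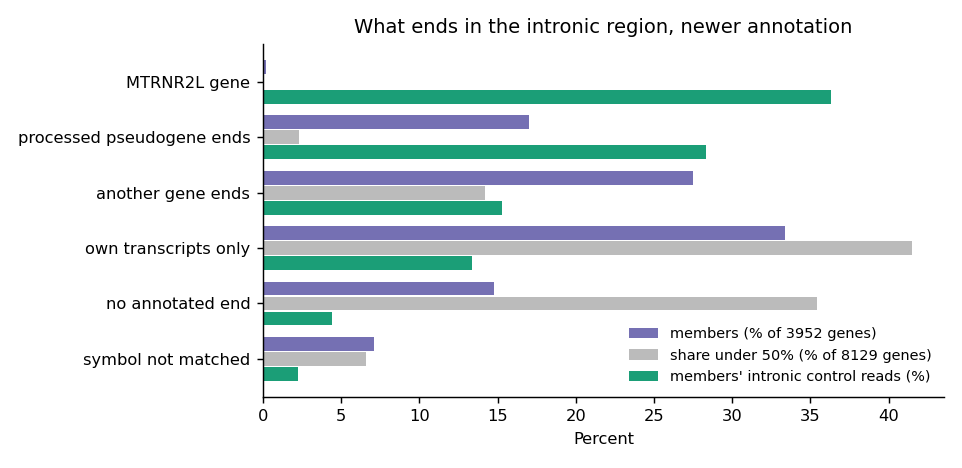
Percent of members (purple, of 3952), of genes with a share under 50% (grey, of 8129) and of the members' intronic control reads (green) in each class of what ends inside the intronic region. MTRNR2L genes are 0.228% of members and hold 36.3% of the reads, while genes with ends of their own transcripts only are 33.4% of members and hold 13.4%.

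The genes with the highest intronic counts were MTRNR2L genes and hosts of processed pseudogenes. Of the 50 members with the most intronic reads 34 hosted a processed pseudogene of any gene (68.0%), against 17.0% of all members, and in 16 of the 50 the pseudogene shared a run of 100 or more identical bases with an mRNA of its closest gene. MTRNR2L12 (hg19 chr3:96335681-96337000, - strand) had 2982771 intronic and 993 3′ UTR reads in the controls (99.97%), MTRNR2L1 935417 and 6295, and MTRNR2L8 795658 and 14697. These genes are far shorter than other members, at 1320 to 1855 bases as counted. PPAP2B (a lipid phosphate phosphatase, 275446 intronic reads), NUCB2 (the nesfatin precursor, 258727) and XPO5 (the exporter of precursor miRNAs, 235954) each enclosed a pseudogene closest to RPS2, a protein of the small ribosomal subunit, with identical runs of 41, 70 and 102 bases. STEAP1B, a STEAP family gene with 109781 intronic reads and 1 3′ UTR read, enclosed EEF1A1P6, which shared 322 bases in a row with the elongation factor EEF1A1. CHCHD3, a subunit of the mitochondrial contact site complex with 107776 intronic reads, enclosed a copy of EEF1G with a run of 542 bases.

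The 3 hosts of RPS2 copies moved together from library to library. Over the 27 libraries the intronic reads of NUCB2 were 0.915 to 1.11 times those of PPAP2B, and those of XPO5 0.77 to 0.91 times. PPAP2B held 3021 to 61395 reads with a median of 24457, NUCB2 3350 to 57173 with a median of 23098, and XPO5 2325 to 52312 with a median of 20837. All 3 were lowest in the same library, LNCaP CPSF1 sh2 BR2. The counts of these genes are given as counted in their introns; how reads that match several places were treated is not given in the sources used here, and the 3′ UTR reads of RPS2 moved with them. RPS2 held 6904 to 107664 3′ UTR reads with a median of 43680 and was lowest in the same LNCaP library, and the intronic reads were 0.438 to 0.635 times those of RPS2 for PPAP2B, 0.485 to 0.607 times for NUCB2 and 0.337 to 0.578 times for XPO5 over the 27 libraries.

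The gene with the most intronic reads did not separate the knockdown from the control. In LNCaP cells MTRNR2L12 had 352747, 176150 and 151881 intronic CPM in CTRL sh, 162947, 368624 and 222745 in sh1 and 152249, 207085 and 321682 in sh2. The groups overlapped throughout, and the log2 change was 0.13 (SE 0.286, adjusted p = 0.824). In LNCaP95 and 22Rv1 it was 0.04 (SE 0.396) and 0.09 (SE 0.315), again with overlapping groups.

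The RPS2 hosts were lower following knockdown in 22Rv1. PPAP2B had 14607, 16942 and 17430 CPM in CTRL sh, 12670, 10934 and 11611 in sh1 and 10277, 8810 and 9483 in sh2. All 6 knockdown libraries lay below the 3 controls, and sh2 lay below sh1. The log2 change was -0.63 for PPAP2B (SE 0.148, adjusted p = 0.0122), -0.64 for NUCB2 (SE 0.145, adjusted p = 0.00921) and -0.67 for XPO5 (SE 0.151, adjusted p = 0.00875). Beside them, the 3′ UTR reads of RPS2 itself changed by -0.28 in 22Rv1 (adjusted p = 0.391), and by -0.58 and -0.47 in LNCaP and LNCaP95, none past the threshold. Introns and 3′ UTRs were scaled apart, so the host and RPS2 changes are not on 1 scale. As counted in 22Rv1, PPAP2B reads were 0.635, 0.552 and 0.554 times those of RPS2 in CTRL sh. They were 0.588, 0.556 and 0.538 times in sh1, and 0.534, 0.497 and 0.568 times in sh2. Knockdown and control libraries overlapped in this measure, also for NUCB2 and XPO5. None of the 3 hosts passed in 22Rv1 without CTRL sh BR3 (-0.60, -0.61 and -0.65), PPAP2B also not without CTRL sh BR2 (-0.60), and none passed with sh1 alone or with 1 library size for both tables (-0.45, -0.47 and -0.50).

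**Figure D3:**
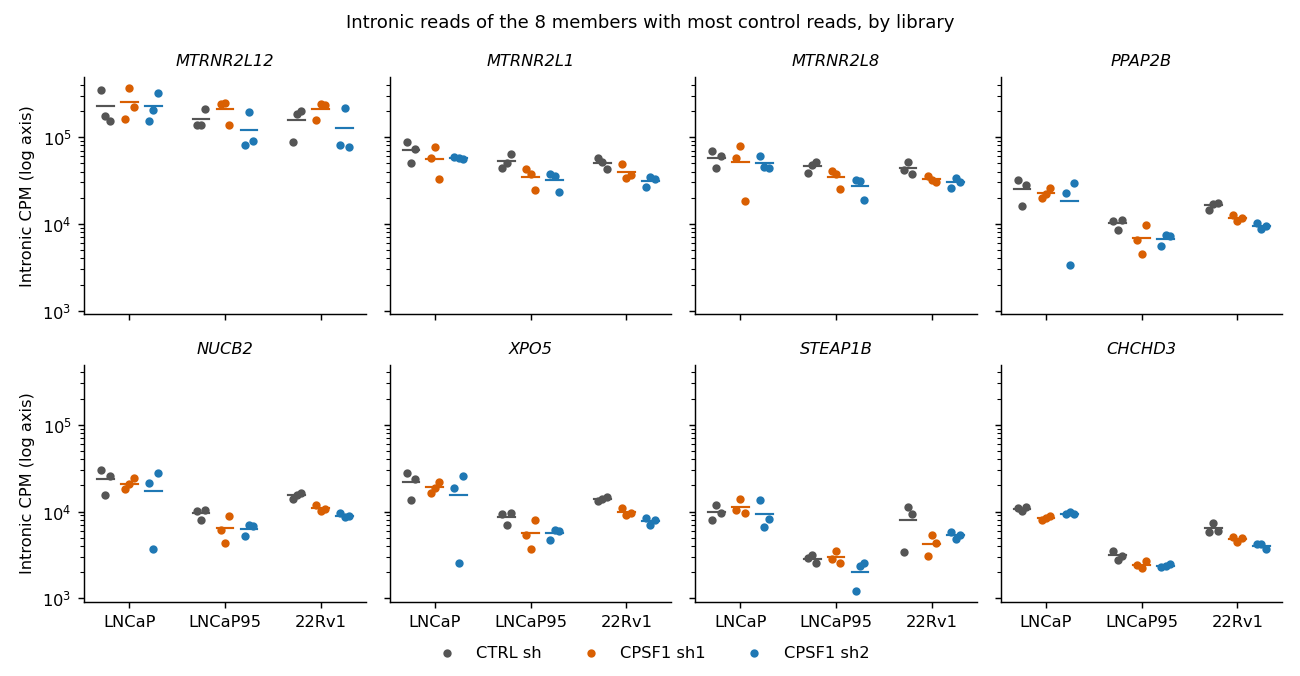
Intronic CPM on a log axis of the 8 members with the most intronic control reads, by line and shRNA; points are libraries and bars the means of 3. MTRNR2L12 lies between 77334 and 368624 CPM with overlapping groups, and PPAP2B, NUCB2 and XPO5 follow 1 pattern, low in 1 LNCaP sh2 library and lower in knockdown than in control libraries of 22Rv1.

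By function, the members were uneven. Of 92 cell adhesion and synaptic genes with 200 reads, 88 were members (95.7%), but that list was drawn up with results of these data known and is not independent evidence. Members made up 44.8% of receptor tyrosine kinases (13 of 29), 43.1% of histone methyltransferases and demethylases (22 of 51), 40% of C2H2 zinc finger genes with ZNF symbols (163 of 407), 41.4% of genes with only a clone or frame symbol (265 of 640), 34.4% of solute carriers (77 of 224) and 34.3% of DNA damage repair genes (24 of 70), beside 32.7% of all genes. Few members came from compact, highly expressed groups: 0 of 84 ribosomal protein genes, 2 of 94 mitochondrial respiratory chain genes (NDUFAF6 and ATP5S), 3 of 61 SR and hnRNP splicing proteins, and 6 of 37 androgen and prostate genes (16.2%). Of the protocadherin cluster 51 genes were in both tables and 0 had 200 reads. No test was made of these shares.

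Shares were mostly alike in the 3 lines, with exceptions. Median shares in the controls were 80.5% for LNCaP cells, 78% for LNCaP95 cells and 77.2% for 22Rv1 cells, and of 3557 members with 50 or more reads in each line 3098 were at 50% or more in all of them. The median range between lines was 8.51 points, 251 members differed by over 25 points and 20 by over 50. Counting members with 50 reads in the line, 85 of 3828 were under 50% in LNCaP cells. The same held for 198 of 3842 in LNCaP95 cells and for 284 of 3717 in 22Rv1 cells.

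Differences between lines were tested in the 18 knockdown libraries, which the rule did not use, as the log2 ratio of intronic to 3′ UTR reads with each table scaled on its own (trimmed mean of M-values, TMM). Of 2925 members with enough reads in both tables, 220 had a higher and 250 a lower ratio in LNCaP95 than in LNCaP at an adjusted p under 0.05 (edgeR quasi-likelihood test, Benjamini-Hochberg over all genes), beside 6.83% and 6.66% of all 9410 genes. In 22Rv1 against LNCaP 406 were higher and 485 lower, beside 13.9% and 12.3%. In 22Rv1 against LNCaP95 492 were higher and 500 lower, beside 16.8% and 13.1%. The 2 lines of 1 lineage thus differed at fewer members than either did from 22Rv1, as held for all genes. The direction depended on the scaling: with 1 library size for both tables the share of these calls that were higher moved from 46.8% to 59.7%, from 45.6% to 83.9% and from 49.6% to 80.7%, while the median of all genes shifted to 0.06, 0.53 and 0.47.

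The widest differences between lines were genes with almost no 3′ UTR reads in 1 line while reads in the intronic region remained. SLC47A1, GUCY1A2, CCDC109B, LPHN2 and PON1, named below, host processed pseudogenes. The longest runs identical to an mRNA of the closest gene were 101, 363, 85, 189 and 30 bases. Whether their intronic reads come from the host genes was not tested. SLC47A1, the MATE1 efflux transporter, had 7398 intronic and 2 3′ UTR reads over the 6 LNCaP knockdown libraries, 3402 and 0 in LNCaP95, and 7148 and 396 in 22Rv1. Its intronic reads were similar in number in LNCaP and 22Rv1, and the 3′ UTR reads were almost all in 22Rv1 (22Rv1 against LNCaP, adjusted p = 6.21e-14). In LNCaP95 the intronic reads were at least 1134-fold the 3′ UTR reads, taking 3 reads over the group as the limit that a count of 0 allows, against 18.1-fold in 22Rv1.

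GUCY1A2, a subunit of the nitric oxide receptor guanylyl cyclase, showed the same order with far more reads in 22Rv1. It had 811 intronic and 88 3′ UTR reads in LNCaP, 1032 and 0 in LNCaP95 (at least 344-fold) and 21895 and 8682 in 22Rv1 (2.52-fold), and all 3 pairs passed (adjusted p = 4.78e-09, 2.39e-09 and 1.73e-15). CCDC109B, the inhibitory pore subunit MCUB of the mitochondrial calcium uniporter, had 577 and 0 in LNCaP95 (at least 192-fold), 219 and 20 in LNCaP, and 594 and 923 in 22Rv1. PON1, a paraoxonase, had 71 and 0 in LNCaP, then 223 and 3 in LNCaP95, and 820 and 1210 for 22Rv1. In each of these genes 22Rv1 held both ends and LNCaP95 almost none of the 3′ UTR end.

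Other genes had other orders. PARVA, a focal adhesion protein, had 69 intronic and 0 3′ UTR reads in LNCaP95 (at least 23-fold) against 166 and 188 in LNCaP and 932 and 796 in 22Rv1. NXN, a thioredoxin family oxidoreductase, had 495 and 1 in 22Rv1 against 1036 and 395 in LNCaP and 1960 and 854 in LNCaP95. DGKB, a diacylglycerol kinase, had 502 and 7 in 22Rv1 against 344 and 460 in LNCaP and 335 and 415 in LNCaP95 (22Rv1 against LNCaP 5.85 on the log2 scale, adjusted p = 2.06e-13). In both NXN and DGKB the 3′ UTR end was nearly missing in 22Rv1 and present in both lines of the LNCaP lineage. LPHN2, a latrophilin adhesion receptor, had 723 and 2 in LNCaP against 1675 and 251 in LNCaP95 and 1020 and 184 in 22Rv1, and SEMA6D, a semaphorin, had 242 and 0 in LNCaP (at least 80.7-fold), 499 and 361 in LNCaP95, and 384 and 23 in 22Rv1. Counting members with 100 or more intronic reads and no 3′ UTR read in the knockdown libraries of 1 line, and 100 or more 3′ UTR reads in those of another, 22 lacked the 3′ UTR end in LNCaP95 and had it in 22Rv1, 17 lacked it in LNCaP and had it in 22Rv1, and 1 to 4 did so for each other pair. These counts are of members only, which the rule chose for few 3′ UTR reads. No count over all genes stands beside them, so they are a description.

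Following knockdown, intronic reads rose at a larger share of the members than of all genes tested in LNCaP and LNCaP95. In 22Rv1 the share rising was near that of all genes. Intronic reads fell at a larger share of the members in LNCaP and 22Rv1, but not in LNCaP95. In LNCaP 470 of 3941 members tested rose and 351 fell (11.9% and 8.91%), beside 8.43% and 5.95% of all 11873 genes tested. In LNCaP95 744 of 3943 rose and 402 fell (18.9% and 10.2%), beside 12.9% and 11.0% of 12490. In 22Rv1 122 of 3937 rose and 118 fell (3.1% and 3.0%), beside 2.75% and 1.6% of 12312. The median log2 change of the members was 0.01, 0.09 and -0.03. A change here is relative to the other intronic reads of the library, and members hold most of these reads. Members also had more intronic reads each than the other genes, and the part of that in the higher share of calls was not tested.

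The counts were much the same for genes chosen without the line's own controls and varied with the rule for members. Chosen by the controls of the other 2 lines, 427 rose and 319 fell of 3431 in LNCaP. For LNCaP95 this gave 662 and 390 of 3505, and for 22Rv1 109 and 99 of 3553. Members with a share of 75% or more gave 363 and 176 of 2150 for LNCaP, then 531 and 154 of 2151 for LNCaP95 and 87 and 86 of 2150 for 22Rv1. Members with 1000 or more reads gave 233 and 266 of 2132, then 360 and 290 of 2134, and 56 and 83 of 2133, and members without another gene on the same strand gave 160 and 175 of 1752, 280 and 202 of 1751, and 44 and 41 of 1748. Rises thus outnumbered falls under each of these rules in LNCaP95, and not under each in the other lines. Without CTRL sh BR1, the library that stood apart, the 22Rv1 counts were 130 rising and 243 falling in place of 122 and 118, and without CPSF1 sh2 BR1 the LNCaP95 counts were 682 and 376. With 1 library size for both tables the counts turned to 223 and 965 for LNCaP, moved to 158 and 8 for 22Rv1, and were 511 and 424 for LNCaP95, as the median of all genes moved to -0.31, -0.12 and 0.17, so the direction of the total is not fixed by these data, and changes are stated below relative to the other intronic reads.

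Few members moved in all 3 lines. Of 3924 tested in each line, 76 rose and 10 fell in all 3, beside 1.72% and 0.123% of all 11376 genes, and 214 rose and 62 fell in 2 or more lines with the same sign in the remaining line, beside 4.68% and 1.4%. Few members differed between the shRNAs. In sh2 against sh1 1 member was higher and 7 lower in LNCaP, beside 0.0337% and 0.0926% of all genes, and 9 and 2 in 22Rv1, beside 0.13% and 0.0244%. In LNCaP95 edgeR called 0 members in either direction, beside 0.0% of all genes, with 213 members at an unadjusted p under 0.05, and no other tool was run on that comparison. Without CTRL sh BR1 the count between the shRNAs in 22Rv1 was 53 in place of 11.

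**Figure D4:**
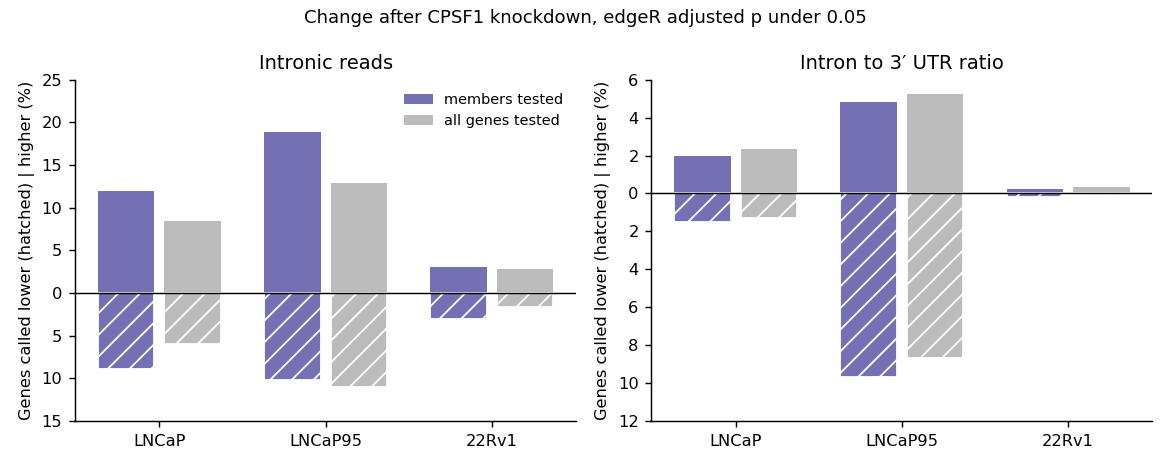
Percent of genes called higher (above 0) and lower (below 0, hatched) following CPSF1 knockdown at an adjusted p under 0.05, for members (purple) and all genes tested (grey); left, intronic reads, and right, the intron to 3′ UTR ratio. In LNCaP95 18.9% of members rose and 10.2% fell in intronic reads, while 4.82% had a higher and 9.67% a lower ratio.

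The lines differed in the size of this change. Tested as the difference of the change between lines, 394 members rose more or fell less in LNCaP95 than in LNCaP and 150 the reverse, beside 4.88% and 3.18% of all genes. In 22Rv1 against LNCaP the counts were 125 and 133, beside 1.98% and 1.77%, and in 22Rv1 against LNCaP95 144 and 402, beside 4.01% and 5.1%. With 1 library size for both tables the split of the last 2 pairs turned, from 48.4% to 93.8% and from 26.4% to 67.6% higher.

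Set against the 3′ UTR reads of the same gene, the members did not lean toward intronic ends following knockdown more than all genes did. The ratio rose at 53 and fell at 40 of 2667 members tested in LNCaP, beside 2.34% and 1.32% of all genes. It rose at 133 and fell at 267 of 2760 in LNCaP95, beside 5.25% and 8.71%. The 22Rv1 counts were 7 and 5 of 2823, beside 0.357% and 0.0649%. The median change was -0.15, -0.17 and -0.08 on the log2 scale for members and -0.11, -0.17 and -0.02 for all genes. Genes chosen by the controls of the other 2 lines gave 55 and 39 of 2495, 153 and 233 of 2661 and 6 and 5 of 2683. Without CTRL sh BR1 the 22Rv1 counts were 11 and 23, and without CPSF1 sh2 BR1 the LNCaP95 counts were 113 and 236. With 1 library size for both tables the counts in the 3 lines were 24 and 199, 89 and 165, and 10 and 1, the share of higher calls moving from 57.0% to 10.8% in LNCaP and from 58.3% to 90.9% in 22Rv1.

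Among members a fall of the ratio went more often with a rise of the 3′ UTR than with a fall of introns. Of the 267 members whose ratio fell in LNCaP95, 185 rose in 3′ UTR reads and 84 fell in intronic reads, with a median change of 0.92 in the 3′ UTR and -0.26 in introns. Over all genes the split was more even, with 435 rises in the 3′ UTR and 377 falls in introns at 795 falls of the ratio and medians of 0.56 and -0.57. Of the 133 members whose ratio rose, 70 rose in intronic reads and 66 fell in 3′ UTR reads. In LNCaP the 40 falls held 29 rises in the 3′ UTR and 9 falls in introns, against 67 and 38 at the 115 falls over all genes. On their own, the members' 3′ UTR reads rose at 189 and fell at 147 in LNCaP, beside 8.17% and 10.2% of all genes. In LNCaP95 they rose at 500 and fell at 236, beside 14.8% and 15.6%, and in 22Rv1 at 14 and 7, beside 0.687% and 0.783%. The controls that chose the members for few 3′ UTR reads also enter this comparison.

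The ratio rose at 1 member in each line (RYK) and fell at 1 (METTL12), beside 0.249% and 0.0125% of all 8030 genes, and 21 rose and 22 fell in 2 or more lines with the same sign in the other, beside 1.51% and 0.56%. RYK (hg19 chr3:133784147-133969689, - strand), a receptor tyrosine kinase-like receptor for Wnt ligands, had 1178 intronic and 771 3′ UTR control reads. In LNCaP95 it had 81.8, 107 and 93.5 intronic CPM in CTRL sh, 421, 795 and 370 in sh1 and 569, 535 and 511 in sh2. Every knockdown library lay far above every control, and so it did in the share, which went from 59.0% to 73.4% in CTRL sh up to 86.84% to 92.82% following knockdown. The intronic change was 2.50 (SE 0.212, adjusted p = 6.24e-10) and the ratio changed by 2.28 (SE 0.247, adjusted p = 1.27e-06), while 3′ UTR reads changed by 0.20 (adjusted p = 0.584).

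RYK rose in the other lines too. In LNCaP it had 43.0, 67.2 and 54.6 intronic CPM in CTRL sh, 157, 159 and 157 in sh1 and 229, 207 and 209 in sh2, and in 22Rv1 43.3, 86.8 and 61.4, then 134, 151 and 137, then 273, 256 and 263. The groups did not overlap in either line, and sh2 lay above sh1 in both. The intronic change was 1.80 (SE 0.166, adjusted p = 2.23e-09) and 1.65 (SE 0.243, adjusted p = 0.00012), and the ratio changed by 1.96 (SE 0.269, adjusted p = 5.1e-05) and 1.34 (SE 0.254, adjusted p = 0.0128). The 22Rv1 ratio did not pass without CTRL sh BR3 (1.30) or with sh1 alone (1.01).

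PPP3CB, a catalytic subunit of the phosphatase calcineurin with an annotated intronic end printed above, had 52.9, 52.0 and 61.5 intronic CPM in LNCaP CTRL sh, 131, 136 and 128 in sh1 and 162, 157 and 205 in sh2. Whether these reads ended there is not known. Both shRNAs lay clear of the controls. Its intronic reads rose by 1.51 (SE 0.159, adjusted p = 2.97e-08) and the ratio by 2.15 (SE 0.24, adjusted p = 3.03e-06), and in LNCaP95 by 1.28 and 1.48 (adjusted p = 0.000528 for the ratio). In 22Rv1 the intronic rise was 0.69 (adjusted p = 0.00797, lost without CTRL sh BR3 at 0.60) and the ratio changed by 0.82 (adjusted p = 0.262).

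RFC3, a subunit of the clamp loader of DNA replication, had 52.4, 42.7 and 51.5 intronic CPM in LNCaP95 CTRL sh, 215, 303 and 194 in sh1 and 254, 210 and 230 in sh2. The lowest knockdown library was far above the highest control, with changes of 2.25 in introns (SE 0.178, adjusted p = 1.9e-10) and 2.19 in the ratio (adjusted p = 6.72e-06). VOPP1, a vesicle membrane protein, had 99.1, 123 and 82.7 in LNCaP95 CTRL sh, 473, 959 and 464 in sh1 and 392, 533 and 553 in sh2. Its intronic reads rose by 2.47 (SE 0.234, adjusted p = 5.18e-09) without overlap of the groups, whereas in LNCaP the ratio rose by 1.54 (adjusted p = 0.000565) with intronic reads at 0.21 (adjusted p = 0.326) and 3′ UTR reads falling by 1.29. The same gene thus reached a higher ratio by a rise of introns in 1 line and a fall of the 3′ UTR in the other.

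SPAG16, a sperm flagella protein, and METTL6, a tRNA methyltransferase, moved on both sides. In LNCaP95 METTL6 had shares of 38.08%, 46.13% and 35% in CTRL sh and 70.95% to 80.7% following knockdown, with no overlap. Its ratio rose by 1.76 in LNCaP and 2.35 in LNCaP95 with 3′ UTR reads falling by 0.79 and 1.24, and in 22Rv1 it changed by 0.19 (adjusted p = 0.883). SPAG16 rose by 1.90 and 1.93 in the ratio, with intronic rises of 0.96 and 0.89 and 3′ UTR falls of 0.92 and 1.04, and by 0.91 in 22Rv1 (adjusted p = 0.0537).

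Among genes whose ratio fell past the threshold in 2 or more lines and with the same sign in all, the 6 with the lowest mean change were DCBLD2, LRRC37A3, MBD5, METTL12, GATS and NPIPB6. JOSD1 (-2.97) and PCF11 (-2.44), described further on, fell further than most of these in LNCaP95 and fell in intronic reads. At these 6 the 3′ UTR reads rose in 5 in LNCaP and in 5 in LNCaP95, and the intronic reads did not pass in either line except for METTL12 in LNCaP, where they rose by 0.83. DCBLD2, a membrane receptor of neuropilin-like build, had shares of 95.16%, 96.04% and 98.2% in LNCaP CTRL sh, 85.07%, 73.58% and 75.52% in sh1 and 75.24%, 80.0% and 91.58% in sh2. All knockdown libraries lay below the controls. The ratio fell by 2.45 in LNCaP (SE 0.525, adjusted p = 0.00657, lost without CTRL sh BR3 at -2.06) and by 2.1 in LNCaP95 (SE 0.357, adjusted p = 0.000294), with intronic changes of -0.05 and 0.38 and 3′ UTR rises of 2.46 and 2.43. These falls rest on few 3′ UTR control reads. DCBLD2 had 265 intronic and 9 3′ UTR reads in the LNCaP controls, and 377 and 39 in the LNCaP95 controls.

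LRRC37A3, a member of a primate repeat gene family whose copies can share reads, fell in the ratio by 2.21 and 2.31 in LNCaP and LNCaP95. MBD5, a methyl-CpG-binding domain protein with a share of 99.02%, fell by 3.69 in LNCaP95 (SE 0.589, adjusted p = 0.000152), where the controls held shares of 99.69% to 100% and the knockdown libraries 94.93% to 98.75%. The fall rests on few 3′ UTR reads, while its intronic reads changed by 0.28 (adjusted p = 0.197), and its fall in LNCaP was lost with the replicate block (-1.28). GATS fell by 1.74 in LNCaP, lost without CTRL sh BR2 (-1.43), and by 1.54 in LNCaP95, lost without CTRL sh BR1 (-1.17). NPIPB6, of a segmentally duplicated family, fell by 1.2 in LNCaP, lost without CTRL sh BR1 (-0.90) or BR2 (-1.19), and by 2.33 in LNCaP95. METTL12, a methyltransferase of citrate synthase whose counted region also holds the small nucleolar RNA SNORA57, fell by 1.07, 2.18 and 1.32. Its falls were lost without CTRL sh BR1 (-1.0) or BR2 (-1.05) in LNCaP, without CTRL sh BR2 (-1.91) or BR3 (-2.15) in LNCaP95, and in 7 of 9 fits without 1 library in 22Rv1, from -1.18 without CTRL sh BR2 to -1.37 without CPSF1 sh2 BR3. The 22Rv1 fall of METTL12 was also lost with the replicate block (-1.28, adjusted p = 0.0673), with 1 library size (-0.99) and with either shRNA alone (-1.27 and -1.35).

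**Figure D5:**
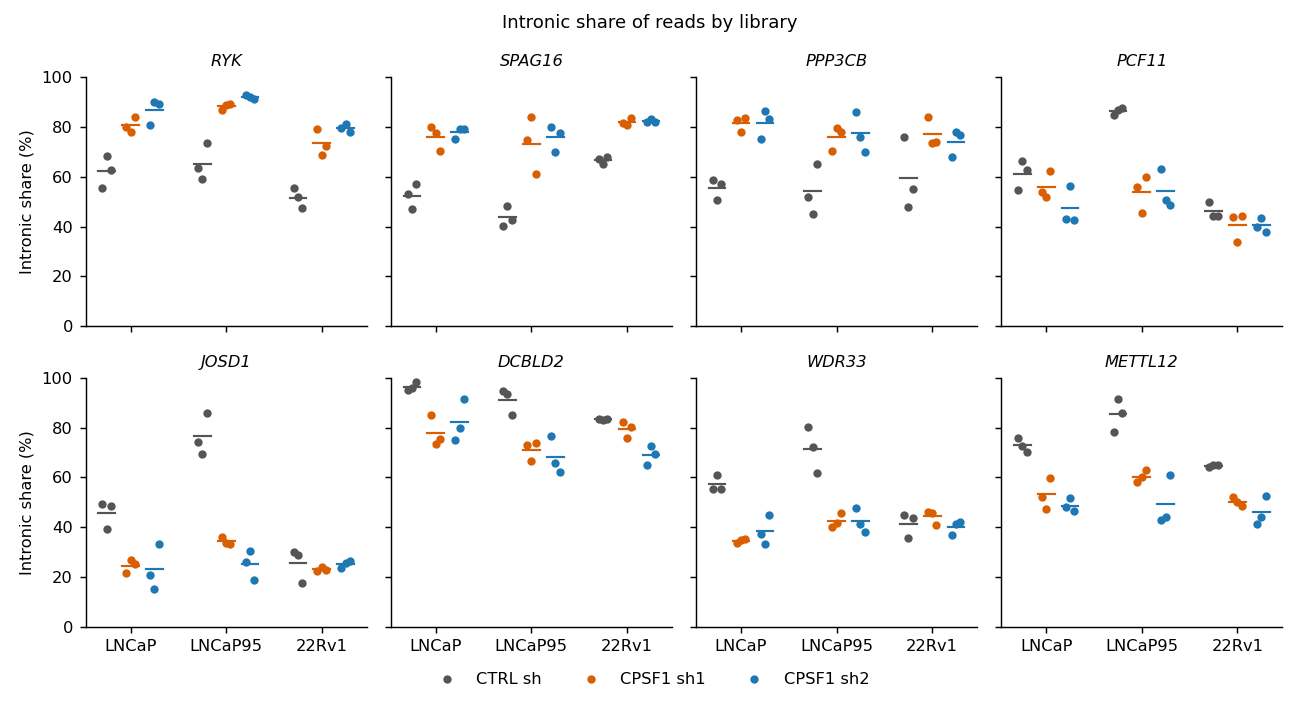
Intronic share in percent for 8 members by line and shRNA; points are libraries and bars the means of 3. RYK, SPAG16 and PPP3CB lie higher following knockdown in LNCaP and LNCaP95, PCF11 falls from 84.65% to 87.73% in LNCaP95 controls to 45.55% to 62.94%, and JOSD1, DCBLD2, WDR33 and METTL12 lie lower in at least LNCaP95.

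For the intronic reads alone, 3 of the 4 highest changes common to the lines were in genes with hardly any 3′ UTR read. NNMT, nicotinamide N-methyltransferase, had 87.2, 88.7 and 89.4 intronic CPM in LNCaP CTRL sh, 543, 478 and 442 in sh1 and 611, 632 and 667 in sh2, a rise by 2.72 (SE 0.154, adjusted p = 4.26e-14). The groups were far apart, and its few 3′ UTR reads rose too, by 3.33, so the ratio changed by -0.60 (adjusted p = 0.59). It rose by 3.46 in LNCaP95 and 1.99 in 22Rv1. AGBL3, a carboxypeptidase that trims tubulin, rose by 2.25, 3.10 and 1.94, and CORIN, a serine protease that activates natriuretic peptides, by 2.57, 2.44 and 2.20, each with too few 3′ UTR reads for the ratio to be tested. AGBL3 also hosts the processed pseudogene RNF14P4, with a run of 81 bases identical to an mRNA of RNF14. Where the AGBL3 reads ended is not known. LAT2, an adaptor of immune receptor signalling with 84 3′ UTR control reads, rose by 2.78, 3.84 and 2.46.

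The lowest changes were in STC1, JOSD1, BACE2 and ZSWIM4. STC1, the secreted glycoprotein stanniocalcin, fell by 2.93 in LNCaP (SE 0.281, adjusted p = 4.92e-09) and 1.23 in LNCaP95, with 3′ UTR reads falling by 3.75 and 1.18, so both ends were lower. BACE2, an aspartic protease, fell by 1.25 and 1.72, the first lost without CTRL sh BR1 (-1.04) or BR2 (-1.28), and ZSWIM4 fell by 1.02 and 1.5. JOSD1, a deubiquitinase, did not lose its 3′ UTR reads. Its intronic share was 76.1% in LNCaP95 controls, 44.7% in LNCaP controls and 23.4% in 22Rv1 controls, so its membership rests on LNCaP95. Those LNCaP95 controls also enter the comparison that follows. In LNCaP95 JOSD1 had 174, 170 and 165 intronic CPM in CTRL sh, 41.7, 52.9 and 39.3 in sh1 and 22.6, 41.0 and 24.6 in sh2. The 6 knockdown libraries all lay far below the lowest control, the share went from 69.35% to 85.92% down to 18.83% to 36.24%, and the changes were -2.19 in introns (SE 0.183, adjusted p = 4.69e-10), -2.97 in the ratio (SE 0.313, adjusted p = 1.02e-06) and 0.69 in the 3′ UTR (adjusted p = 0.0222).

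Of 32 polyadenylation and termination factors with 200 reads, 8 were members (FIP1L1, CDK13, WDR33, PCF11, SCAF8, RBBP6, SCAF4 and PAPOLG), and none rose in any line. In LNCaP95 5 of the 8 fell in intronic reads and 3 in the ratio, in LNCaP 1 and 1, and in 22Rv1 0 and 0, with medians of -0.48, -0.20 and -0.14. In the same order of lines 5, 4 and 0 fell in intronic reads when 1 library size was used for both, and the medians were -0.55, -0.47 and 0.06. Beside this and the following lists stand the shares of all genes given above, 8.43% rising and 5.95% falling in LNCaP, 12.9% and 11.0% for LNCaP95, and 2.75% and 1.6% for 22Rv1. PCF11 (hg19 chr11:82868030-82898793, + strand), a termination factor that binds the RNA polymerase II tail, had 191, 215 and 174 intronic CPM in LNCaP95 CTRL sh, 83.5, 49.5 and 71.2 in sh1 and 58.9, 71.0 and 67.8 in sh2. The groups were far apart. Its intronic reads fell by 1.53 (SE 0.155, adjusted p = 1.7e-08), the 3′ UTR reads rose by 0.91 (adjusted p = 0.00133), and the ratio fell by 2.44 (SE 0.239, adjusted p = 6.25e-07).

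PCF11 did not follow that course in the other lines. LNCaP cells had 31.4, 52.9 and 56.7 intronic CPM in CTRL sh, 60.5, 86.8 and 74.1 in sh1 and 63.5, 48.5 and 42.9 in sh2, and 22Rv1 cells 28.6, 35.2 and 35.2, then 18.7, 23.8 and 25.3, then 37.1, 32.7 and 30.8. Groups overlapped in both, at 0.46 (adjusted p = 0.131) and -0.25 (adjusted p = 0.614), and every LNCaP95 control lay above every control of the other lines. The change differed from that of LNCaP by -1.93 (adjusted p = 1.08e-06) and, for 22Rv1 against LNCaP95, by 1.29 (adjusted p = 0.0017).

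WDR33 (hg19 chr2:128458296-128568761, - strand), the CPSF subunit that contacts AATAAA, had shares of 80.23%, 72.16% and 61.68% in LNCaP95 CTRL sh and 37.97% to 47.92% following knockdown, without overlap. The ratio fell by 1.80 (adjusted p = 4.3e-05) and the 3′ UTR reads rose by 1.28. In LNCaP it fell by 0.90 (adjusted p = 0.0201), lost without CTRL sh BR2 (-0.76) or BR3 (-0.95). RBBP6, a ubiquitin ligase found in the cleavage complex, had 76.0, 68.3 and 56.9 intronic CPM in LNCaP95 CTRL sh, 46.8, 39.3 and 41.7 in sh1 and 27.5, 38.6 and 49.7 in sh2, with a fall by 0.72 (SE 0.182, adjusted p = 0.00392) and no overlap. FIP1L1, another CPSF subunit and the member of this group with the most intronic reads (15007), changed by 0.30, -0.06 and -0.15, none past the threshold. Its counted region (hg19 chr4:54243810-55161439, + strand) also encloses ends of other genes. Among them is the processed pseudogene COMMD5P1, with a run of 104 bases identical to an mRNA of COMMD5. Whether these intronic reads come from FIP1L1 was not tested. CDK13, a kinase of the RNA polymerase II tail, fell by 0.45 in LNCaP95 (adjusted p = 0.0246), lost without CTRL sh BR2 (-0.37) or BR3 (-0.45).

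Of the 13 receptor tyrosine kinases, 7 rose and 1 fell in LNCaP, then 4 and 1 in LNCaP95, and 3 and 0 for 22Rv1, with medians of 0.72, 0.18 and 0.24. Under 1 library size 6 rose and 1 fell in LNCaP, the other counts were the same, and the LNCaP median was 0.46 and the 22Rv1 median 0.42. IGF1R, the receptor of insulin-like growth factors, had 75, 83.4 and 75.4 intronic CPM in LNCaP CTRL sh, 177, 158 and 149 in sh1 and 140, 147 and 211 in sh2. All 6 were above the controls, with a rise by 1.12 (SE 0.147, adjusted p = 1.54e-06) and a rise of the 3′ UTR by 1.49. The ephrin receptor EPHA6 rose by 0.72 in LNCaP (adjusted p = 0.000326) and 0.82 in LNCaP95 (adjusted p = 0.00197), and EPHA3 fell by 0.69 in LNCaP (adjusted p = 0.0164, lost without CTRL sh BR1 at -0.58 or BR2 at -0.72).

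Among the 6 androgen and prostate genes (FOLH1, ABCC4, PPAP2A, NCAPD3, HERC3 and EAF2), 3 rose and 1 fell in LNCaP, then 1 and 1 in LNCaP95, and 0 and 0 for 22Rv1. The LNCaP counts turned to 1 and 3 with 1 library size, and the median went from 0.22 to -0.04. FOLH1 (hg19 chr11:49167887-49230222, - strand), the prostate-specific membrane antigen, had 24872 intronic and 24406 3′ UTR control reads, just over the limit at 50.47%. In LNCaP it had 1634, 1903 and 1822 intronic CPM in CTRL sh, 1038, 1138 and 1161 in sh1 and 1072, 1067 and 1276 in sh2, a fall by 0.62 (SE 0.122, adjusted p = 0.000585) with separate groups. FOLH1 was no member when the rule left out the LNCaP controls, or when it left out the 22Rv1 controls. The LNCaP controls thus both made it a member and entered this fall. In LNCaP95 the 3′ UTR reads fell by 1.10 (adjusted p = 2.17e-06), and the ratio rose by 0.78 (adjusted p = 0.0177, lost without CTRL sh BR1 at 0.76 or BR3 at 0.81). In LNCaP the ratio changed by -0.71 (adjusted p = 0.0754). ABCC4, a drug efflux pump, fell by 0.59 in introns in LNCaP95 (adjusted p = 0.00726). CSTF3, a cleavage factor known for an intronic end, was no member at 37.61%, and its intronic reads rose by 0.77 in LNCaP95 (adjusted p = 0.00409).

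The other lists depended on the scaling in LNCaP. Of 24 DNA damage repair genes 8 rose and 1 fell in LNCaP95, and 0 rose and 1 fell in each of the other lines, which with 1 library size became 3 and 1 for LNCaP95, 0 and 6 for LNCaP and 0 and 0 for 22Rv1. Of 22 histone methyltransferases and demethylases 1 rose and 6 fell in LNCaP, then 0 and 3 in LNCaP95, and 0 and 1 for 22Rv1, against 0 and 13, 0 and 4, and 0 and 0 with 1 library size. Falls thus outnumbered rises among the histone genes in both LNCaP lines under either scaling. With 1 library size falls also outnumbered rises over all genes, at 1969 against 459 in LNCaP and 1325 against 999 in LNCaP95. The 3 falls of 22 in LNCaP95 under separate scaling stood beside 11.0% of all genes. SMYD3, a lysine methyltransferase, fell by 0.53 in LNCaP (adjusted p = 0.00327, lost without CTRL sh BR2 at -0.42). Of 163 ZNF genes 14 rose and 10 fell in LNCaP, with 28 and 11 for LNCaP95 and 3 and 2 for 22Rv1, against 6 and 42, 20 and 15, and 6 and 0 with 1 library size. Of 77 solute carriers 6 rose and 5 fell, 23 and 4, and 2 and 4 in the same order, against 3 and 14, 13 and 5, and 1 and 0. In both lists the LNCaP counts turned.

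Among the 88 cell adhesion and synaptic genes 19 rose and 5 fell in LNCaP, then 28 and 2 in LNCaP95, and 5 and 2 for 22Rv1, with medians of 0.29, 0.41 and -0.02. The counts in LNCaP turned to 6 and 9 with 1 library size, the others were 12 and 2 and 5 and 0, and the medians were 0.03, 0.32 and 0.16. Some of these genes differed widely between lines in the controls. NCAM2, a neural cell adhesion molecule, had 5583, 7518 and 6613 intronic CPM in LNCaP CTRL sh and 27.1, 19.7 and 49.7 in LNCaP95. TENM1, a teneurin, had the reverse order, with 89.0, 69.6 and 85.1 in LNCaP and 2812, 3392 and 2879 in LNCaP95, and it rose by 0.72 in LNCaP (adjusted p = 0.000675). FHIT, which spans a common fragile site, had 26712 intronic and 56 3′ UTR reads and passed in no line.

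The splicing factors among the members were SRRM4, PTBP2 and ESRP1. SRRM4, a neural splicing factor, had 1341, 1152 and 1293 intronic CPM in 22Rv1 CTRL sh against 24.4, 1.91 and 4.28 in LNCaP and 0.444, 2.13 and 1.36 in LNCaP95, so that its membership rests on 22Rv1. In 22Rv1 it changed by -0.24 (adjusted p = 0.32). ESRP1, an epithelial splicing factor, fell by 0.87 in LNCaP95 (adjusted p = 0.00175), and its change of -0.50 in LNCaP (adjusted p = 0.0151) was lost without CTRL sh BR1 (-0.39) or BR3 (-0.50).

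By class of end, more of the pseudogene hosts rose than fell in LNCaP and LNCaP95, and more fell than rose in 22Rv1. Of 673 hosts 149 rose and 57 fell in LNCaP95, and 26 rose and 46 fell in 22Rv1. The 110 hosts whose pseudogene shared a run of 100 or more identical bases with an mRNA gave 17 rises and 5 falls in LNCaP and 16 and 11 in LNCaP95. In 22Rv1 they gave 1 and 13, with a median of -0.26. The 252 hosts with runs of 50 to 99 bases gave 43 and 12, 53 and 22, and 11 and 20, with a median of -0.11 in 22Rv1. The 311 hosts with shorter runs gave 56 and 21, 80 and 24, and 14 and 13, with a median of -0.05. Of all hosts, 1 library size for both tables gave 49 that rose and 120 that fell in LNCaP, 96 and 68 for LNCaP95 and 30 and 3 for 22Rv1 (1 fall in each run class), so the direction turned in LNCaP and 22Rv1. Over all genes that scaling gave 459 and 1969, 999 and 1325, and 399 and 17. Members with own ends only gave 123 rises and 126 falls in LNCaP, then 227 and 146 in LNCaP95, and 38 and 28 for 22Rv1, and members without an annotated end 55 and 62, 88 and 71, and 12 and 13. The 9 MTRNR2L members gave 3 and 0, 0 and 0, and 0 and 2.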

How the data were processed

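The authors aligned PAC-seq reads to hg19 with HISAT2 2.1.0 and, with featureCounts of Subread 2.0.3 and Ensembl GRCh37 genes, assigned the 3′-most base of each read by strand to coding exons, the 3′ UTR extended by 300 bases, introns, or the 10 kb downstream; introns are the gene span without coding and 3′ UTR parts, so they include 5′ UTRs and non-coding exons. The deposited values are raw counts per gene in 4 tables, with no normalization. Treatment of multi-mapped reads is not given in the sources used here.

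Members and gene lists were chosen with earlier results of these data known. Genes with a mean over 2 CPM were tested with edgeR 4.0.16 (R 4.3.3; quasi-likelihood F test, TMM, Benjamini-Hochberg over all genes, threshold 0.05), 3 control against 6 knockdown libraries in each line; SEs are the log2 change divided by the root of F. The ratio was tested on both tables stacked, with library, region and interaction terms. Changes are log2. Named genes were the 8 members with most intronic control reads, the top 3 of 8 lists, the highest and lowest changes shared by lines and between lines, 4 genes known for intronic sites, and the genes nearest each limit. Scripts were tested on simulated data. Ends came from GENCODE 44 mapped to GRCh37, a newer annotation than the authors', in which 91.4% of members were matched by symbol. Alternatives were other scalings, filters, shRNAs, member rules, left-out libraries, a replicate block and DESeq2 1.42.0. Intervals and limits cover counting error only. Some genes and a gene list are not reported here.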

Additional observations from a re-analysis of the deposited data

Results flagged for a closer look

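The knockdown change of intronic reads differed between lines, by the test of the difference itself (edgeR, adjusted over all genes), at the genes and line pairs named here. Each value is the change in the line named first minus that in the second, on the log2 scale. For LNCaP95 against LNCaP it was higher for SRRM4 (3.29), VOPP1 (2.31), STC1 (1.76), RFC3 (1.30), EPHA3 (1.21), SMYD3 (0.86) and ERCC8 (0.67), and lower for PCF11 (-1.93), METTL12 (-1.61), JOSD1 (-1.23), IGF1R (-1.06) and KDM4C (-0.89). JOSD1 thus fell further in LNCaP95, PCF11 fell in LNCaP95 and changed by 0.46 in LNCaP (adjusted p = 0.131), and RFC3 rose further in LNCaP95. JOSD1 is a member through its LNCaP95 controls, which also enter this difference. The SRRM4 values rest on few reads, with 8 intronic control reads in LNCaP95 and 54 in LNCaP, SRRM4 is a member through its 22Rv1 controls, and its LNCaP95 change was lost without CTRL sh BR1 (1.84).

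For 22Rv1 against LNCaP it was higher for STC1 (1.85), EPHA3 (1.24), NCAM2 (0.97) and SMYD3 (0.87), and lower for IGF1R (-0.94), KDM4C (-0.84) and METTL6 (-0.66). For 22Rv1 against LNCaP95 it was higher for JOSD1 (1.98), BACE2 (1.54), METTL12 (1.44), PCF11 (1.29), ZSWIM4 (0.92) and ESRP1 (0.83), and lower for SRRM4 (-2.49), VOPP1 (-1.75), RFC3 (-1.69), NNMT (-1.46), PON1 (-1.36), AGBL3 (-1.15), CCDC109B (-1.15) and METTL6 (-0.88). In 22Rv1 CPSF1 itself fell by 0.72, against 1.19 and 1.06 in the other lines, and the part of that in these differences was not tested.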

How the results depend on the processing

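Counts are of members, rising and falling. Alternatives listed here moved a count by over 1.5 times. With sh1 alone, intronic reads gave 490 and 194 for LNCaP95 and 37 and 16 for 22Rv1, and for the ratio 77 falls in LNCaP, with 43 and 79 for LNCaP95 and 0 and 0 for 22Rv1. With sh2 alone, intronic falls in LNCaP were 223 and the ratio gave 35 and 11 in LNCaP and 3 rises in 22Rv1. With 1 library size for both tables the counts given in the report moved, among them 965 intronic and 199 ratio falls in LNCaP, 165 ratio falls in LNCaP95, 8 intronic falls and 1 ratio fall in 22Rv1. Between lines that scaling gave 120 lower in LNCaP95 than LNCaP, 894 and 171 for 22Rv1 against LNCaP, 865 and 207 for 22Rv1 against LNCaP95, 546 differences in change for 22Rv1 against LNCaP and 1 call between shRNAs in 22Rv1. LNCaP had 223 intronic and 24 ratio rises under it. Control in place of knockdown libraries gave 144 and 113, 130 and 183, and 263 higher for 22Rv1 against LNCaP95, and turned FOLH1 (LNCaP95 against LNCaP, -0.62), PPP3CB (22Rv1 against LNCaP, 0.32), CHCHD3 (-0.21) and LPHN2 (0.31, both 22Rv1 against LNCaP95). Without the CPM filter the 22Rv1 ratio gave 11 and 10, and the shRNAs differed at 27, 7 and 46. Library sizes without MTRNR2L genes, an alternative added after seeing the data, gave 3 ratio falls in 22Rv1, and among members without another same-strand gene the ratio fell at 0.075% of those tested in 22Rv1. Stricter rules left 2154 (share of 75%), 2134 (1000 reads), 1875 (each line) and 1758 members (no other gene).

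Leaving out 1 library at a time, intronic rises and falls ranged over 336 to 528 and 178 to 380 for LNCaP, 531 to 777 and 274 to 424 for LNCaP95, and 67 to 152 and 39 to 243 for 22Rv1. Ratio rises and falls ranged over 28 to 58 and 5 to 68, 86 to 134 and 148 to 284, and 2 to 12 and 0 to 23. Between lines they ranged over 189 to 228 and 206 to 258, 348 to 428 and 416 to 509, and 413 to 540 and 443 to 535. Differences in change ranged over 377 to 576, 145 to 348 and 384 to 625, and calls between shRNAs over 3 to 25, 0 to 9 and 3 to 53. The replicate numbers did not pair the samples, with correlations of -0.129 to 0.257 between same-numbered libraries, 4 of 27 over 0.1, and the replicate block gave 433 and 307, 759 and 405, and 115 and 100 for intronic reads, and 42 and 27, 128 and 256, and 6 and 4 for the ratio. It moved none of these counts by over 1.5 times, but ended calls of single genes, among them the ratio falls of METTL12 in 22Rv1 and MBD5 in LNCaP (both -1.28). For the named genes, calls in intronic reads passed again 1122 times over the alternatives and missed 152 times. The causes of these shifts were not tested, except that fewer libraries leave fewer degrees of freedom.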
